A study of Homo sapiens with 12 samples.

Results

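The transcripts described here are retained-intron transcripts in the polysomes of 3 triple-negative breast cancer cell lines. They were chosen by 2 criteria, the GENCODE 44 type retained_intron and a mean of at least 20 expected counts over the 12 libraries, with the SRSF genes left out. The rule took 2010 of the 26833 retained-intron transcripts among 201932 transcripts of all types, and 9 transcripts of SRSF genes met the other criteria but were not included. The mean count that chose them is a measured value, so their abundance is a description only. Just inside the minimum lay ZFPL1-215, TPP2-218 and MLST8-221, each with a mean of 20.0 counts, and just outside lay transcripts such as EIF3K-207 and NAXE-209, with means of 19.96 and 19.96 counts.

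The study asked how the level of TRMT112, which activates methyltransferases that modify ribosomal RNA, tRNA and proteins, alters the RNAs bound to ribosomes. MDA-MB-231 and SUM159 cells carried either the GIPZ shRNA plasmid against TRMT112 (TRMT112 KD) or a non-silencing GIPZ plasmid, labelled EV CTRL, after lipofection and puromycin selection. BT549 cells carried a TRMT112 open reading frame in pReceiver-M02 (TRMT112 OE) or the empty pReceiver-M02 vector (EV CTRL) under G418, and each line was grown in a medium of its own. Each of the 6 groups had 2 libraries, for which no source used here names separate cultures, so the p-values measure only the spread between these libraries, which may be technical. Ribosome-bound RNA was taken from sucrose gradients of cycloheximide-treated cells, and no total RNA was analysed here, so the amount of an RNA in the cell and its loading on ribosomes cannot be told apart. The libraries held 22954226 to 27434677 counts each, and the 2 libraries of a group varied 2.14 to 3.05 times as much over genes as counting alone gives. TRMT112 itself had a normalised count of 4043 ± 147 in MDA-MB-231 EV and 1723 ± 58.1 in KD, 6446 ± 165 in SUM159 EV and 3802 ± 148 in KD, and 3082 ± 5.61 in BT549 EV and 4304 ± 19.5 in OE (SD, n = 2). The labelled cell type was compared with its markers: PGR was at or near 0 in all groups, ERBB2 lay between 1413 and 3360 normalised counts, VIM was lowest, at 17142, in BT549 OE, and KRT8 and KRT18 were at most 15.1 in BT549 and at least 4513 in the other lines. In these bulk libraries, fewer cells holding a transcript and less of it per cell cannot be told apart.

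Introns are normally removed before an mRNA leaves the nucleus. A retained-intron transcript keeps 1 or more of them, or ends inside one, and usually has no full open reading frame. Such RNAs are held in the nucleus, are destroyed by nonsense-mediated decay once ribosomes meet an early stop codon, or persist in the cytoplasm. Intron retention is a known means of tuning the output of genes for splicing factors and RNA helicases, and it is most often seen in short introns rich in G and C.

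The 2010 transcripts came from 1585 genes, of which 1255 gave 1 transcript, 261 gave 2 and 69 gave 3 or more. Nearly all, 1971, belonged to protein-coding genes, 33 to lncRNA genes and 6 to pseudogenes. Their median mean count was 46.7, and the range ran from 20.0 to 36310. They took a median of 3.82% of their gene's counts, and 61 of them took over 50%. At least 1 complete intron of the gene, spliced out in other transcripts, was kept by 970 of them, and 1040 kept none whole. Introns are counted by annotated start and end, so those kept by a transcript can overlap. The bases found in no exon of the gene's transcripts of other types, called own bases here, had a median of 258.5 per transcript, or 17.6% of its length. Other retained-intron transcripts of the gene were left out of that comparison, so own bases can be shared with them. For 497 transcripts there were under 100 own bases, and for 94 none. Reads over shared exons were divided among transcripts in the deposited counts, so the counts of such transcripts, which made up 41.8% of all the counts described here, depend on that division. Reads of EEF1A1, of ribosomal protein genes, of HNRNPA1 and of NPM1 are also shared with their processed pseudogenes, and their values are uncertain for that reason. Whether the counting used strand is not given in the sources used here.

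The splice sites of kept introns are shown for the transcripts that the results below turn on. Each line gives the last 8 exon bases and first 12 intron bases, with the first 6 intron bases in capitals, from the GRCh38 genome and read along the gene's strand.

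EEF1A1-207: gtgctaacGTAAGTggcttt

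HNRNPA1-259: ccaaagagGTATGCttgttg

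RPL10-215: gctgacagGTGAGCttggtc

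DDX39B-215: tgcaagatGTAAATaccctt

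HSPB1-203: gatcaccgGTGAGCccccct

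FKBP11-210: tgtgtgggGTGAGTatctcg

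FLNA-221: gccttcagGTGAGGcaccga

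The matching 3′ ends, with the final AG of the intron in capitals, are given for 3 of these introns.

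EEF1A1-207: aattggcatgcttgtgtttcAGatgcct

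RPL10-215: accttgcactaccccaatgtAGgctcca

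DDX39B-215: ccacccccttcctcccccccAGccaatg

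The introns lie at chr6:73518849-73518931 on the minus strand (EEF1A1, 83 bases), chr12:54282487-54282572 on the plus strand (HNRNPA1, 86 bases), chrX:154399942-154400463 on the plus strand (RPL10, 522 bases) and chr6:31532912-31535366 on the minus strand (DDX39B, 2455 bases). The other 3 are at chr7:76303077-76303801, plus (HSPB1, 725 bases), chr12:48923853-48924222, minus (FKBP11, 370 bases) and chrX:154351042-154351580, minus (FLNA, 539 bases). Of the 7, only the EEF1A1 intron opens with GTAAGT, the sequence that pairs best with the U1 snRNA. Each of these introns is spliced out in at least 4 other annotated transcripts of its gene.

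Introns held whole were shorter and richer in G and C than the other introns. The 1725 introns held whole, from 780 genes, had a median length of 298 bases, with quartiles of 134 and 662. The 27800 other introns, from 1555 of the genes described, had a median of 1262 bases, with quartiles of 385 and 3747. The comparison is thus not within genes. An intron counted as kept only if it lay whole inside 1 exon of a transcript, and the transcripts had a median length of 1851.5 bases. That rule itself favours short introns, and introns kept only in part fell among the others. Of the kept introns, 36.6% were under 200 bases long, against 15.3% of the others. Their median GC content was 57.9% against 47.3%. The 5′ sequence GTAAGT opened 5.68% of kept and 10.8% of other introns, whereas GTGAGT opened 13.5% and 13.7%. Almost all ended in AG, 99.2% and 99.9%. These shares describe the annotated introns, which are not replicates, and carry no test. Overlapping versions of an intron were counted apart in both sets. A snoRNA or scaRNA gene lay inside 24 of the 1725 kept introns (1.39%) and 143 of the 27800 others (0.514%), and a miRNA gene inside 8 (0.464%) and 198 (0.712%). The 24 include overlapping versions around SNORD84 in DDX39B-219, SNORD96A in RACK1-230, SNORA70 in RPL10-216 and SNORA61 in SNHG12-202. They are thus not 24 separate introns.

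**Figure D1:**
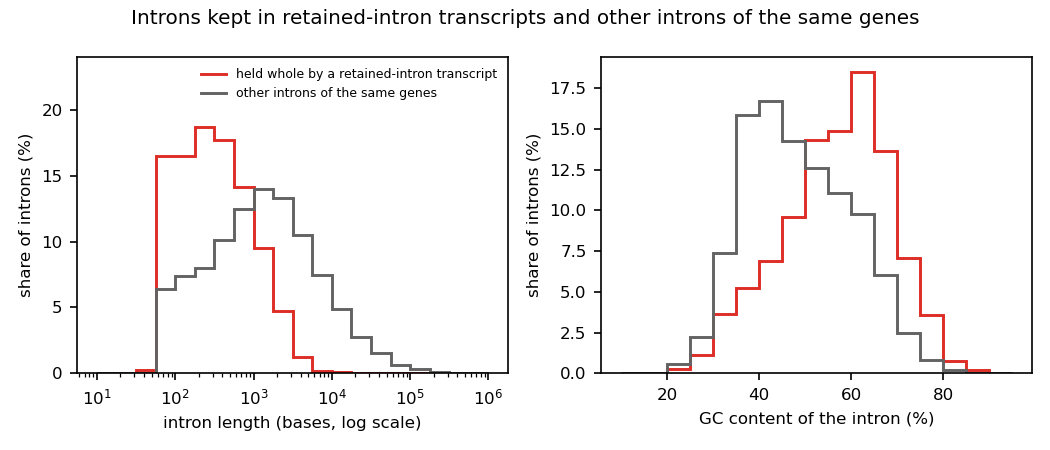
The left panel plots the length of introns in bases on a log scale and the right panel their GC content in percent, each as the share of introns per bin. Introns held whole by a retained-intron transcript (red, n = 1725, from 780 genes) have a median of 298 bases and are most frequent between 60 and 65% GC. The other introns of the genes described (grey, n = 27800, from 1555 genes) have a median of 1262 bases and are most frequent between 40 and 45% GC.

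The share of each library in these transcripts was alike in both knockdown comparisons and higher in BT549 OE. The EV libraries of MDA-MB-231 held 1.555% and 1.557%, and those of KD slightly less, 1.542% and 1.526%. The EV libraries of SUM159 held 1.476% and 1.532%, against 1.506% and 1.504% for KD, so the groups overlapped. BT549 EV libraries held 1.298% and 1.286%, against 1.588% and 1.595% for OE, a ratio of 1.23 with no overlap. With 2 libraries against 2 the smallest p an exact two-sided permutation test can give is 0.333, so sums and medians over these transcripts are given without a p. Set against the counts of their own genes, they made up 4.96% and 4.95% in BT549 EV and 5.82% and 5.88% in OE. All 26833 retained-intron transcripts of the table gave 1.48% and 1.47% in BT549 EV and 1.77% and 1.78% in OE. Transcripts annotated as targets of nonsense-mediated decay had a lower share in the treated libraries of all 3 lines, at 3.39% and 3.41% in BT549 EV and 3.22% and 3.16% in OE.

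A few abundant transcripts made up much of the BT549 difference. The net difference of 2997 CPM (counts scaled to an equal library total) held 872 CPM from FSTL1-210 alone, or 29.1% of it. FSTL1 encodes a secreted glycoprotein, and its transcript stood at 456 CPM in EV and 1328 CPM in OE. EEF1A1-207, from the gene of the elongation factor that brings aminoacyl-tRNA to the ribosome, added 354 CPM, RPL4-203 added 327 CPM and RPL14-208 added 310 CPM. SPARC-202, from a matrix glycoprotein gene, added 273 CPM, and FLNA-221, from the gene of the actin cross-linker filamin A, went from 11.3 to 228 CPM. On the other side SPON2-218, from a secreted matrix protein gene, stood at 497 CPM in EV and 201 CPM in OE. FSTL1-210, RPL4-203, RPL14-208 and SPARC-202 hold no whole intron. Transcripts with no whole intron took 0.811% and 0.796% of the BT549 EV libraries and 0.996% and 1.001% of the OE libraries. Those with a whole intron took 0.487% and 0.490% in EV and 0.592% and 0.594% in OE. Transcripts of ribosomal protein genes took 0.162% and 0.163% of the BT549 EV libraries and 0.272% and 0.273% of the OE libraries. Without FSTL1-210 the BT549 ratio was 1.17, without EEF1A1-207 it was 1.22, and without the ribosomal protein genes it was 1.17. Among the 279 transcripts with at least 50% own bases the BT549 ratio was 0.831, the opposite direction, and SPON2-218 decided that value, since without it the ratio was 1.11.

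**Figure D2:**
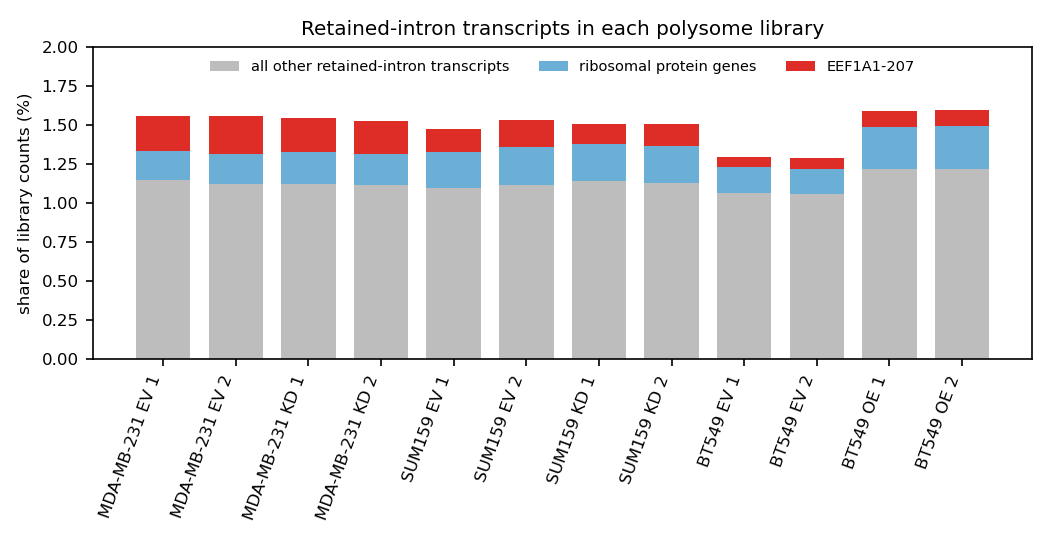
Each bar is 1 polysome library, and its height is the share of library counts (%) in the 2010 retained-intron transcripts, divided into EEF1A1-207 (red), ribosomal protein genes (blue) and all others (grey). Both BT549 OE bars, at 1.588% and 1.595%, stand above both BT549 EV bars, at 1.298% and 1.286%, while EV and KD bars are of like height in the other lines.

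The median share of the gene of transcripts that held a whole intron went opposite ways in the 2 knockdown lines. Their median share of the gene's counts in MDA-MB-231 was 2.74% and 2.64% for EV, above the 2.18% and 2.37% for KD. For SUM159 the EV medians of 2.08% and 2.10% lay below the KD medians of 2.76% and 3.01%. The BT549 medians, 2.20% and 2.27% for EV against 2.34% and 2.29% for OE, were 0.081 percentage points apart on average. Summed over these transcripts, the share of their genes' counts was 4.63% and 4.76% in MDA-MB-231 EV and 4.35% and 4.30% in KD. The SUM159 sums, 4.13% and 4.32% in EV and 4.27% and 4.33% in KD, overlapped. The BT549 sums were 3.36% and 3.42% in EV and 3.75% and 3.81% in OE. For the difference between the 2 knockdown lines, the smallest p an exact permutation of libraries within lines can give is 0.0556, so it is given as a description. The log2 difference in share was above 0 for 38.2% of these transcripts in MDA-MB-231 (median −0.14), for 69.8% in SUM159 (median 0.32) and for 48.5% in BT549 (median −0.01). Over all transcripts tested the median was 0.00 in each line. For the 1040 transcripts with no whole intron the median share was 4.58% and 4.32% in MDA-MB-231 EV and 4.50% and 4.62% in KD, which overlapped, and 4.43% and 4.49% in SUM159 EV and 4.78% and 4.86% in KD. When the transcripts were chosen by their counts in the other lines only, the whole-intron median differed by −0.384 points in MDA-MB-231 and 0.723 points in SUM159. Without any 1 library the ranges were −0.511 to −0.320 and 0.667 to 0.921 points. Of the RNAs known to stay in the nucleus, MALAT1 had a normalised count of 413 ± 10.4 in MDA-MB-231 EV and 602 ± 28.0 in KD, 1820 ± 61.2 and 1779 ± 44.6 in SUM159, and 1659 ± 10.3 and 1604 ± 241 in BT549 (SD, n = 2). NEAT1 had 67.7 ± 23.9 and 98.2 ± 38.0, 217 ± 12 and 149 ± 51.8, and 35.4 ± 3.81 and 141 ± 41.1 in the same order, and the part of either in the shares was not tested.

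**Figure D3:**
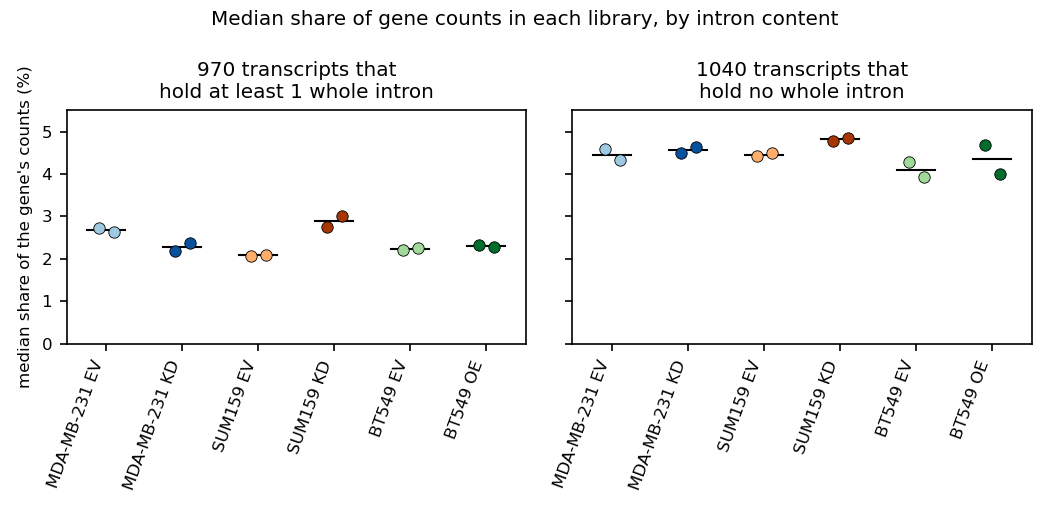
Points are libraries and the y axis is the median, over transcripts, of the share of the gene's counts (%), with a line at the mean of the 2 libraries. For the 970 transcripts with a whole intron (left) the median is lower in MDA-MB-231 KD than in EV and higher in SUM159 KD than in EV, and for the 1040 without one (right) the MDA-MB-231 groups overlap.

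The share of the gene was tested transcript by transcript with edgeR's quasi-likelihood test, with the counts of the gene as the offset and Benjamini-Hochberg adjustment over 59551 transcripts. Of the 1995 transcripts in that test, none passed an adjusted p of 0.05 in MDA-MB-231, against a background of 0.0705% of all transcripts tested (0.0319% higher and 0.0386% lower). There 152 had an unadjusted p under 0.05, or 7.62% against 7.12% of all transcripts tested. In that line limma's diffSplice called 11 and edgeR's diffSpliceDGE 6, for which the share over all transcripts is not given here. In SUM159 the count was 19, 11 higher and 8 lower, or 0.952% against a background of 0.657% (0.314% and 0.343%). In BT549 it was 73, 41 higher and 32 lower, or 3.66% against a background of 2.18% (1.1% and 1.08%). Protein-coding transcripts with a mean of at least 20 counts were called at rates of 1.23% in SUM159 and 3.76% in BT549, at a median count of 153 against 46.7 for the retained-intron transcripts. The difference between the 2 knockdown effects passed for 4 transcripts, 3 higher in MDA-MB-231 and 1 lower, against a background of 0.282% (0.144% and 0.138%). Shares that did not overlap between groups were seen for 833 of the 2010 transcripts in MDA-MB-231 (41.4%, background 38.0%), 1006 in SUM159 (50.0%, background 42.8%) and 1037 in BT549 (51.6%, background 46.8%). Precision was limited by depth: between libraries of a group the median log2 difference was 0.55 for the 1073 transcripts under 50 counts and 0.17 for the 303 with 200 or more in MDA-MB-231 EV. Leaving out any 1 library lowered the calls to 6 to 8 in SUM159 and 21 to 25 in BT549.

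**Figure D4:**
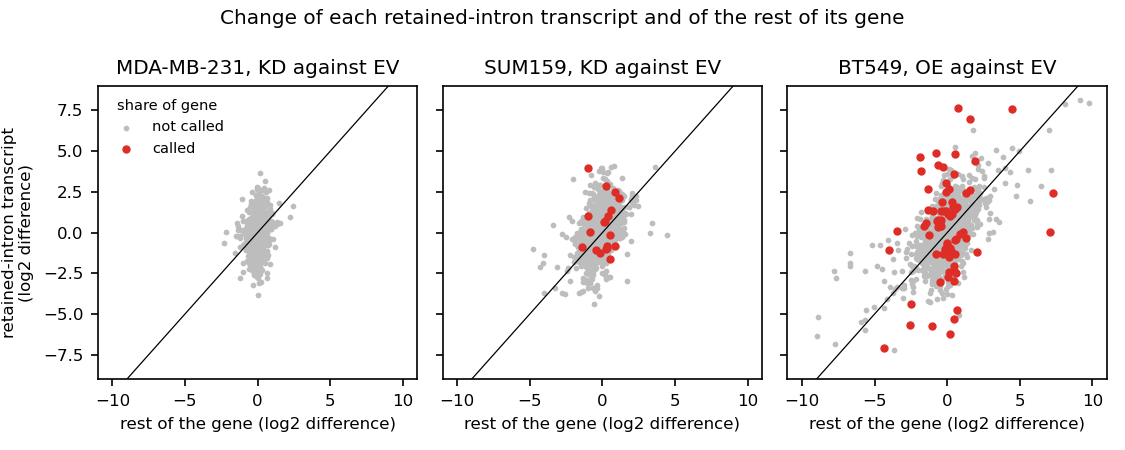
Each point is 1 retained-intron transcript, with the log2 difference between groups of the rest of its gene on the x axis and of the transcript itself on the y axis, and the line marks equal change. Red points passed the test of the share of the gene: 0 in MDA-MB-231, 19 in SUM159 and 73 in BT549, on both sides of the line.

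Of the 10 most abundant retained-intron transcripts, none passed the share test in any line. EEF1A1-207, which has 83 own bases and keeps the 83-base intron shown above, held between 31.9% and 36.8% of EEF1A1 counts in all 12 libraries. Its share did not pass the test in any line, with log2 differences of 0.02 ± 0.057, 0.06 ± 0.057 and 0.04 ± 0.058 (SE, n = 2 against 2). RPL14-208 held 76.7% to 80.8% of its gene with 13 own bases. CACYBP-207, from the gene of calcyclin-binding protein, held 54.3% to 59.0%. RPL11-205 and RPL4-203, both from large-subunit proteins, held 21.8% to 29.6% and 37.6% to 45.4%. RPL13-213 held 15.9% to 22.2%, and NPM1-231, from the gene of the nucleolar protein nucleophosmin, held 8.17% to 15.9%. FSTL1-210 held 37.7% to 48.4%. SPARC-202 held 21.8% to 39.4%, with both extremes in MDA-MB-231, where SPARC counts were lowest. None of these shares passed the test in any comparison, and each count that passed had a gene that passed in the same direction. In BT549 the log2 count differences of FSTL1-210, RPL4-203 and SPARC-202 were 1.53, 1.42 and 1.74, and those of their genes were 1.34, 1.32 and 1.94. RPL4-203 fell in SUM159 with its gene, by 0.47 on the log2 scale (edgeR adjusted p = 0.00014), and the gene by 0.48.

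HNRNPA1-259 took a different share of its gene in each line. HNRNPA1 encodes an RNA-binding protein that represses splice sites. The transcript keeps 5 annotated introns, which may overlap, but has only 86 own bases. Its share of the gene was 5.86% and 5.45% in MDA-MB-231 EV, 6.57% and 6.80% in KD, 21.6% and 22.4% in SUM159 EV, 20.9% and 20.3% in KD, 13.3% and 13.4% in BT549 EV and 14.2% and 14.8% in OE. The lines did not overlap, and within each line the treated libraries did not overlap the EV libraries. No single comparison passed the test (edgeR adjusted p = 0.093, 0.40 and 0.17), but the difference of the 2 knockdown effects did, at 0.34 ± 0.051 on the log2 scale (adjusted p = 0.0448), though it ended without any 1 library of these lines but MDA-MB-231 EV 1. Its count fell in SUM159 by 0.73 on the log2 scale, as its gene did by 0.62.

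Among genes of RNA helicases, the transcript DDX39B-215 took a larger share in SUM159 KD and a smaller one in BT549 OE. DDX39B is a helicase of splicing and mRNA export. DDX39B-215 keeps a 2455-base intron and has 2429 own bases, 60.3% of its length. It held 14.8% and 14.5% of the gene in SUM159 EV and 25.1% and 24.4% in KD, 10.9% and 10.4% in MDA-MB-231 EV and 7.51% and 8.50% in KD, and 21.4% and 20.2% in BT549 EV and 10.9% and 9.96% in OE. The share rose in SUM159 by 0.76 ± 0.076 on the log2 scale (SE, n = 2 against 2, edgeR adjusted p = 0.0045). It fell in BT549 by 0.99 on the same scale (adjusted p = 0.00047). In MDA-MB-231 the log2 difference was −0.41 ± 0.076 (adjusted p = 0.17), and the knockdown effects differed by −1.17 ± 0.11 (adjusted p = 0.0061). In SUM159 the count of DDX39B-215 did not pass the test (log2 difference 0.06), while the gene fell by 0.68. In BT549 the gene did not pass (0.03), and the count of DDX39B-215 fell by 0.96. Both share calls remained whichever library was left out. The SUM159 call ended with the line fitted alone (0.0819), with diffSpliceDGE (0.135) and with limma (1.0), and the BT549 call with limma (0.393). A second retained-intron transcript of the gene, DDX39B-219, held 0.585% to 2.74% and did not pass in any line.

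DDX5-215 and DDX17-201, from the genes of 2 related helicases, were chosen after their values were seen. DDX5-215 held 20.0% and 14.5% of DDX5 in BT549 EV and 2.06% and 3.85% in OE, and its share fell by 2.54 on the log2 scale (edgeR adjusted p = 0.0056) with the rest of the gene at 0.03. DDX17-201 held 6.71% and 8.47% of DDX17 in BT549 EV and 3.03% and 2.13% in OE, a fall by 1.55 (adjusted p = 0.0283). In SUM159 DDX17-201 held 13.8% and 14.8% in EV and 19.3% and 19.7% in KD, and DDX5-215 held 23.1% and 21.2% in EV and 32.2% and 30.7% in KD, neither past the test (adjusted p = 0.68 and 0.63).

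Over the 24 transcripts of hnRNP and related genes, the median log2 share differences were −0.31 in MDA-MB-231, 0.79 in SUM159 and −1.06 in BT549. Over all transcripts tested the medians were 0.00. Summed, the 24 went the other way in BT549, where they took 4.25% and 4.23% of their genes' counts in OE, against 3.50% and 3.43% in EV. Their summed share was also larger in SUM159 KD (8.27% for either library) than in SUM159 EV (7.3% and 7.8%). As a share of the library they were lower there, at 0.0590% and 0.0636% in EV and 0.0389% and 0.0400% in KD. HNRNPA1-259, the most abundant of them, took a smaller share of its gene in SUM159 KD than in EV. The MDA-MB-231 sums overlapped, with EV libraries at 3.24% and 3.10% and KD libraries at 3.12% and 3.10%. Of the 24, 1 passed the share test, in SUM159, or 4.17% against the background of 0.657%. The 22 transcripts of CLK and DYRK kinases and nuclear speckle proteins had median log2 share differences of −0.32, 0.43 and −0.22 in the same order of lines. Among them 1 was called higher in SUM159, and 1 higher and 1 lower in BT549 (4.55% and 9.09%, against 0.657% and 2.18%). Others of these groups did not pass in any line. TRA2B-212, from a splicing activator gene, held 22.3% to 31.2% of its gene. ARGLU1-204 held 12.3% to 32.3%, with the 4 SUM159 libraries highest. TIAL1-211 held 14.5% to 36.7%, and HNRNPA3-217 held 0.553% to 2.49%.

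RPL10-215 lost share in SUM159 KD and BT549 OE. RPL10 encodes a large-subunit protein, and RPL10-215 keeps 3 annotated introns, which may overlap. It has 522 own bases, and one of the introns it keeps is the 522-base intron at chrX:154399942-154400463, inside which the annotation places SNORA70, a 135-base H/ACA snoRNA gene. Its share of RPL10 was 19.5% and 19.4% in MDA-MB-231 EV and 18.0% and 18.1% in KD, 9.81% and 10.8% in SUM159 EV and 4.59% and 4.71% in KD, and 9.46% and 10.1% in BT549 EV and 5.07% and 5.37% in OE. The treated libraries were below the EV libraries in all 3 lines. The share fell in SUM159 by 1.15 on the log2 scale (SE 0.051, edgeR adjusted p = 5.2e-05) and in BT549 by 0.91 (SE 0.050, adjusted p = 7.4e-05), and the MDA-MB-231 difference of −0.11 ± 0.049 did not pass (adjusted p = 0.72). The 2 knockdown effects differed by 1.04 ± 0.070 (adjusted p = 0.0013). The gene's log2 differences were 0.20, 0.21 and 0.79. In SUM159 the transcript's own count fell by 0.95, and in BT549 its log2 count difference was −0.11 (adjusted p = 0.21). Both share calls remained whichever library was left out.

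A second RPL10 transcript with the same intron, RPL10-216, was looked up after these values were seen. It held 2.01% and 1.94% of RPL10 in MDA-MB-231 EV and 1.44% and 1.63% in KD, 1.54% and 1.22% in SUM159 EV and 1.66% and 1.73% in KD, and 0.993% and 1.09% in BT549 EV and 0.790% and 0.858% in OE. In SUM159 its treated libraries were thus above the EV libraries, unlike those of RPL10-215, with a log2 difference of 0.30 ± 0.14 (edgeR adjusted p = 0.55). The 18 transcripts that hold an intron with a small RNA gene included other translation genes. RPL13-207, with SNORD68, held 3.24% to 6.99% of RPL13, and RACK1-230, with SNORD96A, held 1.58% to 2.45% of RACK1. Neither of them passed the share test. Reads from a snoRNA and reads from its host intron cannot be separated in these counts, and the snoRNA's part in the RPL10-215 values was not tested.

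**Figure D5:**
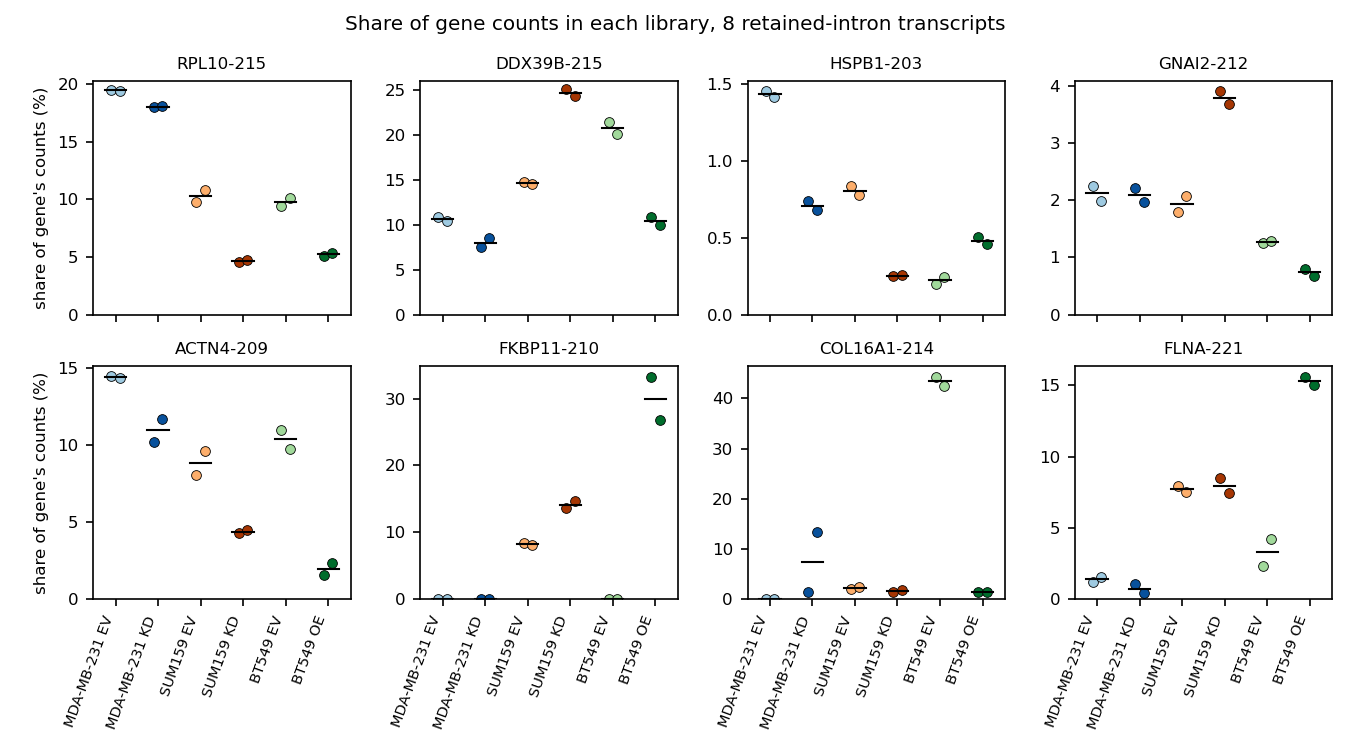
Points are libraries, the y axis is the share of the gene's counts (%), and lines mark the mean of 2 libraries, with a scale starting at 0 for each of 8 retained-intron transcripts. RPL10-215 and ACTN4-209 are lower in the treated libraries of every line, DDX39B-215 and GNAI2-212 are higher in SUM159 KD and lower in BT549 OE, and HSPB1-203 is lower in both KD groups and higher in BT549 OE.

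The other transcripts with large share changes in SUM159 came from genes of several functions. HSPB1 encodes a small heat shock protein, and HSPB1-203 keeps 6 annotated introns, which may overlap. HSPB1-203 held 1.45% and 1.42% of the gene in MDA-MB-231 EV, 0.737% and 0.679% in KD, 0.836% and 0.779% in SUM159 EV, 0.254% and 0.256% in KD, 0.203% and 0.242% in BT549 EV and 0.506% and 0.457% in OE. Its share fell in SUM159 by 1.67 (log2, edgeR adjusted p = 0.0094) and rose in BT549 by 1.12 ± 0.20 (adjusted p = 0.0259). The MDA-MB-231 difference, −1.02 ± 0.19, did not pass (adjusted p = 0.17). Neither call remained when any 1 library was left out, with adjusted p between 0.0521 and 0.15.

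GNAI2-212, from the gene of an inhibitory G protein subunit, held 1.80% and 2.06% in SUM159 EV and 3.91% and 3.67% in KD, and its share rose by 0.97 ± 0.11 (edgeR adjusted p = 0.0075). In BT549 it held 1.26% and 1.29% in EV and 0.803% and 0.679% in OE, and the share fell by 0.78 (adjusted p = 0.0151). BCAP29-213 and CHMP1A-213, from genes of an endoplasmic reticulum membrane protein and an ESCRT-III protein, rose in SUM159. BCAP29-213 went from 1.37% and 1.77% of its gene to 8.90% and 12.4%, and CHMP1A-213 from 1.96% and 1.61% to 6.54% and 4.53% (adjusted p = 0.0338 and 0.0467). FRMD4A-207 fell from 2.66% and 3.20% to 0.776% and 0.446% (adjusted p = 0.0448). These values rest on few counts: BCAP29-213 had 8 and 12 in SUM159 EV and 73 and 121 in KD. FRMD4A-207 had 29 and 37 counts in SUM159 EV and 12 and 8 in KD. CHMP1A-213 has 23 own bases. The calls of BCAP29-213, CHMP1A-213 and FRMD4A-207 ended without any 1 SUM159 library (adjusted p from 0.0741 to 0.247), that of GNAI2-212 in SUM159 without KD 1 or EV 1 (0.0644 and 0.0709), and that in BT549 without any but OE 1 (0.07 to 0.0871). DCTN5-203, chosen after its values were seen, is from a dynactin subunit gene and held 43.4% and 45.2% in MDA-MB-231 EV and 49.5% and 50.2% in KD, against 47.3% and 46.5% in SUM159 EV and 35.4% and 36.3% in KD. The knockdown effects on it differed by 0.56 ± 0.054 (adjusted p = 0.0080).

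A transcript of ACTN4 and one of FLNA changed in share in BT549 OE. ACTN4-209, from the actin cross-linker alpha-actinin 4, held 14.5% and 14.4% of ACTN4 in MDA-MB-231 EV and 10.2% and 11.7% in KD, 8.07% and 9.63% in SUM159 EV and 4.33% and 4.48% in KD, and 11% and 9.74% in BT549 EV and 1.61% and 2.37% in OE. The groups did not overlap in any line. Its share fell by 2.38 in BT549 (log2, edgeR adjusted p = 0.00026) and by 1.01 in SUM159 (adjusted p = 0.0322), and the MDA-MB-231 difference of −0.40 ± 0.14 did not pass (adjusted p = 0.58). The BT549 call remained whichever library was left out, and the SUM159 call ended without any 1 of them (adjusted p from 0.0809 to 0.185). A second transcript of the gene, ACTN4-208, held 2.24% to 5.18% and did not pass in any line. FLNA-221 held 2.37% and 4.23% of FLNA in BT549 EV and 15.6% and 15.0% in OE, a rise of 2.21 ± 0.31 (adjusted p = 0.0099) beside a gene difference of 2.10. Its call ended without OE 1 or EV 1 (0.054 and 0.0644). In the other lines it held 0.412% to 1.60% in MDA-MB-231 and 7.42% to 8.50% in SUM159.

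Transcripts with the largest rises of share in BT549 included some near 0 in EV. FKBP11 encodes a peptidyl-prolyl isomerase of the endoplasmic reticulum. FKBP11-210 was at 0 counts in both BT549 EV libraries and held 33.2% and 26.7% of the gene in OE, and its normalised count was at least 117-fold higher, against a floor of 3 counts per library. The gene itself rose by 5.04 on the log2 scale. In SUM159 the transcript held 8.48% and 8.12% in EV and 13.6% and 14.7% in KD, and in MDA-MB-231 at most 0.0015%. FKBP11-213, looked up after its values were seen, keeps 8 annotated introns of the same gene, which may overlap. It had 30 and 25 counts in BT549 EV and 31 and 24 in OE, so it went from 90.9% and 65.0% of the gene to 2.68% and 2.09% while its log2 count difference was 0.03. LRP1-211, from an endocytic receptor gene, held 0.0386% and 0.0672% in EV and 14.2% and 14.0% in OE (adjusted p = 0.0201, edgeR). EIF4G1-233, from the scaffold of the cap-binding complex, held 0.962% and 1.22% in EV and 11.1% and 7.14% in OE (adjusted p = 0.0290), with 15 own bases. CKB-202, from brain-type creatine kinase, held 0.210% and 0.0602% in EV and 1.79% and 1.02% in OE (adjusted p = 0.0211). There the gene fell by 3.43 and the transcript's count did not pass (log2 difference −0.05), resting on 14 and 4 counts in EV and 11 and 6 in OE. Of these BT549 calls, that of FKBP11-210 remained without OE 2 and that of CKB-202 without EV 1, and leaving out any other library ended them, as it did those of LRP1-211 and EIF4G1-233 (adjusted p from 0.0504 to 0.176). In MDA-MB-231 EV, LRP1-211 had 22 counts in one library and 0 in the other.

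The falls of share in BT549 included transcripts near 0 in OE. COL16A1-214, from a collagen gene, held 44.2% and 42.6% in EV and 1.5% and 1.41% in OE (edgeR adjusted p = 0.0170). CANX-204, from the chaperone calnexin, held 0.992% and 1.04% in EV and 0.0023% and 0.0046% in OE (adjusted p = 0.0362). CFB-291, from complement factor B, held 11.2% and 13.4% in EV and 0.328% and 0.356% in OE (adjusted p = 0.0282), and its normalised count was at least 95.2-fold lower against the same floor. TTC23-211 held 18.1% and 25.1% in EV and 1.19% and 0.177% in OE (adjusted p = 0.0358), but from 4 and 3 counts in EV and 1 and 0 in OE. COL16A1-214 and CFB-291 met the minimum of 20 counts only through BT549 EV, with means of 9.33 and 16.7 counts in the other lines, so the choice of transcripts favoured a fall in OE for them. Of the 73 share calls in BT549, 68 were of transcripts that met the minimum in the other lines alone. Without any 1 BT549 library none of these 4 calls remained (adjusted p from 0.0808 to 0.185), and CANX-204 had 0 and 31 counts in the 2 libraries of SUM159 KD. Across the 2010 transcripts, 9 were at 0 in both BT549 EV libraries with at least 20 counts in both OE libraries, and 4 were the reverse. SUM159 gave 3 and 0, and MDA-MB-231 gave 0 and 0. The same jump between the 2 libraries of 1 group was seen for 9 to 23 transcripts.

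The count of each transcript was also tested without regard to its gene. In MDA-MB-231, 35 of the 2010 transcripts passed, 26 higher and 9 lower, or 1.74% against a background of 3.5% of 66844 transcripts (2.33% higher and 1.17% lower). Scaled by library size only, 14 were higher and 13 lower there. In SUM159, 185 passed, 87 higher and 98 lower, or 9.20% against 12.5% (5.65% and 6.88%). In BT549, 405 passed, 231 higher and 174 lower, or 20.1% against 21.4% (10.5% and 10.9%). The difference between the 2 knockdown effects passed for 117, 66 higher in MDA-MB-231 and 51 lower, against a background of 8.46% (5.08% and 3.38%). The gene was called in the same direction for 30 of the 35, 166 of the 185 and 347 of the 405. It was called in the opposite direction for 1, 14 and 31, and not called for 4, 5 and 27. Of all genes tested, 37.6%, 60.0% and 70.4% were called in the same order of lines. The gene's counts include those of the transcript, and the same split over all called transcripts is not given here. Without any 1 library the counts were 19 to 34, 101 to 117 and 275 to 287. Among the 279 transcripts with at least 50% own bases, 13 were higher and 1 lower in SUM159, 28 and 17 in BT549, and none in MDA-MB-231.

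Passing in both knockdown lines were 16 transcripts, 16 of 35 in MDA-MB-231 (45.7%, against 61.8% over all transcripts) and 16 of 185 in SUM159 (8.65%, against 17.3%). They made up 0.796% of the 2010, against a background of 2.16% of all transcripts (0.887% higher in both lines, 0.411% lower in both and 0.865% in opposite directions). Of the 16, 7 were higher in both, namely FSTL1-210, GNAI2-212, MBOAT7-212, MORF4L1-216, RPL13-213, RPL14-208 and SPARC-202, 3 were lower in both (ACTN4-209, C8orf33-204 and RRM2-217), and 6 went opposite ways. They are named because they passed, after their values were seen. MBOAT7-212, from a lysophospholipid acyltransferase gene, rose by 0.55 ± 0.069 and 0.63 ± 0.070 on the log2 scale (edgeR adjusted p = 0.0016 and 0.00014). RRM2-217, from the small subunit of ribonucleotide reductase, fell by 0.46 and by 0.80 (adjusted p = 0.0158 and 9.7e-05), with no own bases. NNMT-208, from nicotinamide N-methyltransferase, rose by 1.84 ± 0.10 in MDA-MB-231 and fell by 0.38 in SUM159 (adjusted p = 1.2e-05 and 0.0214). The target of the knockdown has a retained-intron transcript of its own. TRMT112-205 had 88 and 91 counts in MDA-MB-231 EV and 18 and 7 in KD, and fell by 2.80 on the log2 scale (adjusted p = 0.0070). It had 215 and 233 in SUM159 EV and 149 and 86 in KD, and 135 and 144 in BT549 EV and 242 and 235 in OE, neither past the test (adjusted p = 0.13 and 0.18).

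By gene function, the shares of transcripts whose count passed in BT549, beside the background of 21.4%, were 61.1% for interferon and antigen presentation genes, 59.1% for matrix and adhesion, 39.4% for translation factors, 28.8% for ribosomal proteins, 24% for the actin cytoskeleton and 20.8% for hnRNPs. They were 20% for tRNA synthetases, 13.6% for CLK and DYRK kinases and speckle proteins and 11.1% for glycolysis and metabolism enzymes. In SUM159, beside 12.5%, they were 30% for tRNA synthetases, 27.3% for translation factors, 24% for the actin cytoskeleton, 17.3% for ribosomal proteins and 4.55% to 11.1% for the others. In MDA-MB-231, beside 3.5%, they were 0% to 8%, the highest for the actin cytoskeleton. Of 52 transcripts from 33 ribosomal protein genes, 14 rose and 1 fell in BT549, 4 rose and 5 fell in SUM159, and 3 rose in MDA-MB-231. Of 18 transcripts of interferon and antigen presentation genes, 1 rose and 10 fell in BT549, with a median log2 count difference of −2.63 and a median share difference of 0.43. HLA-E-203 fell by 2.40, with the gene at −3.10, and B2M-203 fell by 1.33, with the gene at −2.00. TAPBP-241, with a count difference of −0.63, did not pass. Of 22 transcripts of matrix and adhesion genes, 9 rose and 4 fell in BT549, with a median of 1.44. P4HB-233 and P4HB-226, from a subunit of collagen prolyl hydroxylase, did not pass in any line and have no own bases. Of 33 transcripts of translation factor genes, none rose and 9 fell in SUM159, and 7 rose and 6 fell in BT549. EIF1-205, from a start-codon selection factor, held 19.3% to 26.4% of its gene and fell in SUM159 by 0.61 with its gene. EIF3L-212 held 42.4% to 59.2% of its gene and fell by 0.43 in SUM159 and rose by 0.64 in BT549. The 25 transcripts of actin cytoskeleton genes gave 2 lower in MDA-MB-231, 5 higher and 1 lower in SUM159, and 4 and 2 in BT549. The 10 transcripts of tRNA synthetase genes gave 3 lower in SUM159, among them WARS1-237 (by 3.27), and 2 lower in BT549. Of 9 transcripts of glycolysis and metabolism enzymes, PFKM-206 was the only one lower in SUM159 (by 1.70) and in BT549 (by 0.81), while ENO1-210 and FASN-202 did not pass.

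The factors that remove introns or destroy unspliced RNA are given by the polysome counts of their genes, for which 37.6% of 16562 genes were called in MDA-MB-231, 60.0% in SUM159 and 70.4% in BT549 (edgeR, adjusted p of 0.05). Higher and lower calls were 21.1% and 16.5%, 28.6% and 31.4%, and 35.5% and 34.9%. In SUM159 KD most were lower. Of 28 genes of the U1 and U2 snRNPs and U2AF, 7 rose and 18 fell in SUM159, 4 rose and 11 fell in MDA-MB-231, and 16 rose and 4 fell in BT549. The split in MDA-MB-231 depended on the scaling: over the 135 factor genes, 25 were higher and 39 lower with TMM, 33 and 35 with RLE size factors, and 9 and 61 by library size only, which moved the median of all genes there from 0.00 to −0.08. Of 38 genes of the tri-snRNP and catalytic spliceosome, 7 rose and 28 fell in SUM159, 8 and 12 in MDA-MB-231, and 17 and 16 in BT549. Over all genes the median log2 difference was 0.00, 0.00 and 0.02, and these 2 lists had medians of −0.29 and −0.49 in SUM159. The exon junction complex and nonsense-mediated decay list, 18 genes, gave 4 higher and 12 lower in SUM159, 3 and 5 in MDA-MB-231, and 8 and 8 in BT549. The mRNA export and nuclear exosome list gave 8 and 18 of 31, 5 and 9, and 17 and 10. The 8 CLK and SR protein kinase genes gave none higher and 4 lower in SUM159, 2 and 1 in MDA-MB-231, and 2 and 2 in BT549. The 12 genes of the minor spliceosome gave 5 and 4, 3 and 1, and 5 and 4.

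Values are given for some of these factors. SF3B2, a branch-site protein of the U2 snRNP, had 5768 ± 167 normalised counts in SUM159 EV and 2730 ± 66.9 in KD, and 2407 ± 7.87 in BT549 EV and 4280 ± 72.5 in OE (SD, n = 2). EFTUD2, the GTPase of the U5 snRNP, fell in SUM159 from 1941 ± 15.2 to 697 ± 2.86, and SNW1 of the catalytic spliceosome from 2155 ± 2.52 to 853 ± 49.9. PRPF8, the core protein of the spliceosome's active site, rose in BT549 from 1027 ± 67.4 to 3529 ± 15.5. MTREX, the helicase of the nuclear exosome, fell in SUM159 from 1891 ± 5.53 to 685 ± 49.8 and rose in BT549 from 421 ± 12.8 to 926 ± 3.11. EIF4A3, the helicase of the exon junction complex, fell in SUM159 from 2423 ± 13.2 to 1075 ± 66.0 and in BT549 from 3635 ± 173 to 1599 ± 16.1. In MDA-MB-231, CWC22 fell from 379 ± 15.1 to 192 ± 35.3 and UPF1, the central helicase of nonsense-mediated decay, from 832 ± 50.1 to 602 ± 42.8. MAGOHB of the exon junction complex rose there from 954 ± 22.8 to 1399 ± 48.4, SNRPB2 of the U2 snRNP from 1850 ± 10.1 to 2552 ± 81.5, and EXOSC1 of the exosome from 1539 ± 21.8 to 2032 ± 39.4. The part of these factors in the shares of retained-intron transcripts was not tested.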

How the data were processed

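Polysome RNA of 12 libraries was measured by RNA-seq. The authors used Trimmomatic for trimming, HISAT2 for alignment (genome build GRCh38) and SAMtools for duplicate removal, and deposited expected counts per Ensembl transcript, and the counting tool and annotation are not given in the sources used here. The labels name a poly(A) library kit and the study's methods an rRNA-depletion kit, and whether RNA without a poly(A) tail is included in the shares depends on which was used. A mark in place of a value, in 5.08% of rows, was taken as 0. Transcript types, exons and introns came from GENCODE 44 (79.6% of transcripts matched).

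Expected counts were rounded and tested with edgeR 4.0.16 in R 4.3.3 (quasi-likelihood, 1 model of 6 group means, TMM factors, filterByExpr, Benjamini-Hochberg adjustment over all features, threshold 0.05). The share of a gene was to be tested with diffSpliceDGE, but on simulated data 19.6% to 44.8% of its calls fell in unchanged genes. It was replaced by the same quasi-likelihood test with the gene's counts as offset, where 0% did. On the simulated data that test recovered 3%, 4% and 2% of 2-fold and 20%, 14% and 6% of 4-fold share changes in MDA-MB-231, SUM159 and BT549 among 54103 transcripts, so a transcript that did not pass may still have changed. Normalised counts are TMM-scaled. DESeq2 1.42.0 and limma 3.58.1 gave alternatives. Libraries of a group were compared by chi-square and none was a duplicate of another.

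Transcripts named are the 10 most abundant, the 4 per direction and comparison with the largest called change of share (mean of at least 50 counts, gene mean of at least 200, no overlap between groups), the 3 most abundant of each gene list, and the 3 on either side of the minimum, with the 2 factor genes of smallest p per list and comparison. Some transcripts that meet these rules are not reported here. Others are said to be chosen after their values were seen. The transcripts and all lists were chosen with earlier results of these data known. Shares of a gene are not corrected for length.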

Additional observations from a re-analysis of the deposited data

Results flagged for a closer look

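For 4 transcripts the effect of TRMT112 KD on the share of the gene differed between MDA-MB-231 and SUM159 in edgeR's test of the difference. The log2 difference, MDA-MB-231 minus SUM159, was 1.04 ± 0.070 for RPL10-215 (adjusted p = 0.0013, effects of −0.11 and −1.15). It was −1.17 ± 0.11 for DDX39B-215 (adjusted p = 0.0061, effects of −0.41 and 0.76), 0.56 ± 0.054 for DCTN5-203 (adjusted p = 0.0080, effects of 0.17 and −0.39), and 0.34 ± 0.051 for HNRNPA1-259 (adjusted p = 0.0448, effects of 0.24 and −0.10). Without any 1 library of these lines the calls of RPL10-215, DDX39B-215 and DCTN5-203 remained, and that of HNRNPA1-259 remained only without MDA-MB-231 EV 1 (otherwise adjusted p from 0.0914 to 0.159). None of the 4 passed with limma, and with diffSpliceDGE only RPL10-215 did. With the replicate number as a block the call of HNRNPA1-259 ended (edgeR adjusted p = 0.0891). Each direction was shown by both KD libraries of each line against both EV libraries.

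The median share of the gene of the 970 transcripts that hold a whole intron moved in opposite directions, by −0.416 percentage points in MDA-MB-231 and 0.794 in SUM159. The gap between the lines was −1.21 percentage points, for which the smallest p an exact permutation of libraries within lines can give is 0.0556, so it stands as a description. The summed share of the same transcripts in their genes' counts overlapped between SUM159 EV and KD.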

How the results depend on the processing

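Count calls in MDA-MB-231, 35 as reported, were 89 with no filter, 19 with each line fitted alone and 125 with DESeq2, and SUM159 gave 362 with DESeq2. Share calls in MDA-MB-231 were 2 with no filter, 1 among transcripts of at least 50 counts, 11 with limma and 6 with diffSpliceDGE. With each line alone they were 1 in SUM159 and 20 in BT549, and with limma 53 and 139. The test between knockdown effects called 34 with limma and 12 with diffSpliceDGE. The replicate numbers did not pair the libraries (correlations from −0.011 to 0.0094). With the replicate block, share calls were 0, 11 and 45 and count calls 32, 165 and 382 in MDA-MB-231, SUM159 and BT549. The calls over all transcripts under these alternatives are not given here, so the counts cannot be set against a background.

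The ratio of library shares in MDA-MB-231 was 0.960 over all retained-intron transcripts, 0.972 without ribosomal protein genes, 0.979 without FSTL1-210 and 0.928 for at least 50% own bases, with or without SPON2-218. It turned to 1.02 for at least 100 counts and 1.00 without EEF1A1-207. SUM159 gave 1.04 over all retained-intron transcripts, 0.968 for at least 100 counts and 1.21 for at least 50% own bases, with or without SPON2-218. BT549 gave 1.20, 1.27 and, in the opposite direction, 0.831 for these 3 settings, and 1.11 for the last without SPON2-218. It was 1.22 without EEF1A1-207, 1.17 without ribosomal protein genes, 1.17 without FSTL1-210 and 1.18 against the counts of the genes. The whole-intron median for at least 50 counts differed by −0.670 points in MDA-MB-231 and 0.495 in BT549. The cause was not tested.

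Without any 1 library, count calls were 19 to 34, 101 to 117 and 275 to 287, and share calls 0, 6 to 8 and 21 to 25, in MDA-MB-231, SUM159 and BT549. Fewer libraries were then fitted, and the lone one was assumed to vary like the other groups. Of the named share calls, those of RPL10-215 in SUM159 and ACTN4-209 in BT549 passed under all 13 alternatives, and none changed direction. The RLE and library-size settings among these could not alter a share call, because the gene's counts served as the offset.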
